A study of Solanum lycopersicum with 24 samples.

Results

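The genes described here are 100 tomato loci that stood higher with SlMYB92 overexpressed than in most other hairy roots of the study, out of 34688 loci in the table. They were chosen by level. A locus had to reach a mean of 2 CPM (counts scaled to a common library total, not to transcript length) with SlMYB92 overexpressed, which 15061 loci did. Loci were then ranked by the log2 ratio of that mean to the highest mean among the control, the SlMYB41 and SlMYB92 knockouts, both SlWRKY71 knockout lines and SlWRKY71 overexpression, with 0.5 CPM added to each. The first 100 were kept, after 8 loci that the rule sets aside had been left out. SlMYB41 overexpression took no part in the choice, and its 3 libraries are the samples in which the loci can be examined apart from it.

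All libraries came from the first 1 cm of root tips of hairy root cultures of the tomato cultivar M82, with 10 tips pooled per sample after growth without light at 25 °C for 9 days on 3% sucrose. Hairy roots grow from tissue transformed with Rhizobium rhizogenes, so every group, the control included, is transgenic. There were 8 groups of 3 libraries. In 3 of them SlMYB92, SlMYB41 or SlWRKY71 was overexpressed as a fusion with a FLAG tag from the constitutive CaMV 35S promoter, which is active in most cell types and not only in those where the gene is normally used. In 4 groups CRISPR/Cas9 constructs were used to knock out SlMYB92, SlMYB41 or SlWRKY71 (lines 4 and 5). The control carried an empty vector. The labels name a single line for each group except for the SlWRKY71 knockout, so a difference between groups cannot be told apart from a difference between individual root lines. Nothing in the labels says how far the 3 samples of a group were separate cultures beyond calling them biological replicates, and p-values measure the spread between these samples only.

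SlMYB92 and SlMYB41 are MYB transcription factors, proteins that bind promoters and switch genes on or off. The series title calls the studied factors enriched in the exodermis. This is the cortical layer just under the epidermis, and in tomato its walls receive suberin. Suberin is a polyester of fatty acids, glycerol and phenolic compounds that limits the passage of water and solutes, and in Arabidopsis MYB41 and MYB92 are known as activators of its synthesis. The table pairs no identifier with a gene name, and 0 of its 34688 identifiers were found in the reference table, so the loci are called by identifier and no role is given to any of them. For the same reason the tissue could not be checked against marker genes, no pathway list could be filled, and no sequence is shown. The digits after "Solyc" in an identifier give the chromosome.

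Library totals ran from 4852464 to 15372241 estimated counts, and 18297 loci passed a filter on low counts (filterByExpr) and were tested together in a single fit. Solyc05g051550, the locus taken here as SlMYB92 itself from recall and not from any table, was at 48.0, 91.1 and 58.1 CPM in SlMYB92 overexpression libraries 2, 3 and 4, against 0, 0 and 0.198 CPM in control libraries 2, 3 and 5. It is one of the 8 loci left out. Solyc02g079280, taken in the same way as SlMYB41, was at 12.7, 13.9 and 6.67 CPM in SlMYB41 overexpression libraries 2, 3 and 5, against 0, 0.165 and 0 CPM in the control. Reads of a transgene count towards its locus. In the SlMYB92 knockout Solyc05g051550 was at 0.195, 0 and 0 CPM, and the control level was too low for a fall to be detectable at this depth. Libraries are named by the number in the column name, which is not the replicate number of the labels.

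The 100 loci spanned a wide range of ratios. By the values that chose them, the ratio of the means with 0.5 CPM added was 43.4-fold for the first locus, 3.72-fold at the median and 2.17-fold for the last. It exceeded 4-fold for 45 loci and 8-fold for 15. With SlMYB92 overexpressed, the mean level per locus lay between 2.06 and 2038 CPM with a median of 12.8 CPM, and 44 loci were under 10 CPM, where few reads stand behind a value. In root tips with several cell types, fewer cells that use a gene and less RNA per cell cannot be told apart. For 79 of the loci the lowest SlMYB92 overexpression library was above all 18 libraries of the 6 groups set against it. These are the groups that chose the loci, and the share over all loci was not computed, so nothing is read from the 79. Of the 100 loci, 92 passed the filter on low counts, and 22 of these passed only through the SlMYB92 overexpression libraries. The 8 loci below the filter were Solyc07g008980, Solyc04g011940, Solyc03g115960, Solyc10g085360, Solyc10g009380, Solyc07g009020, Solyc04g011600 and Solyc05g052900. Against the control, 73 of the 92 tested loci were called higher and none lower (edgeR quasi-likelihood test, adjusted p under 0.05), where 2.02% of all loci tested were called higher and 1.26% lower. The choice of the loci used this comparison, so nothing is read from that count.

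**Figure D1:**
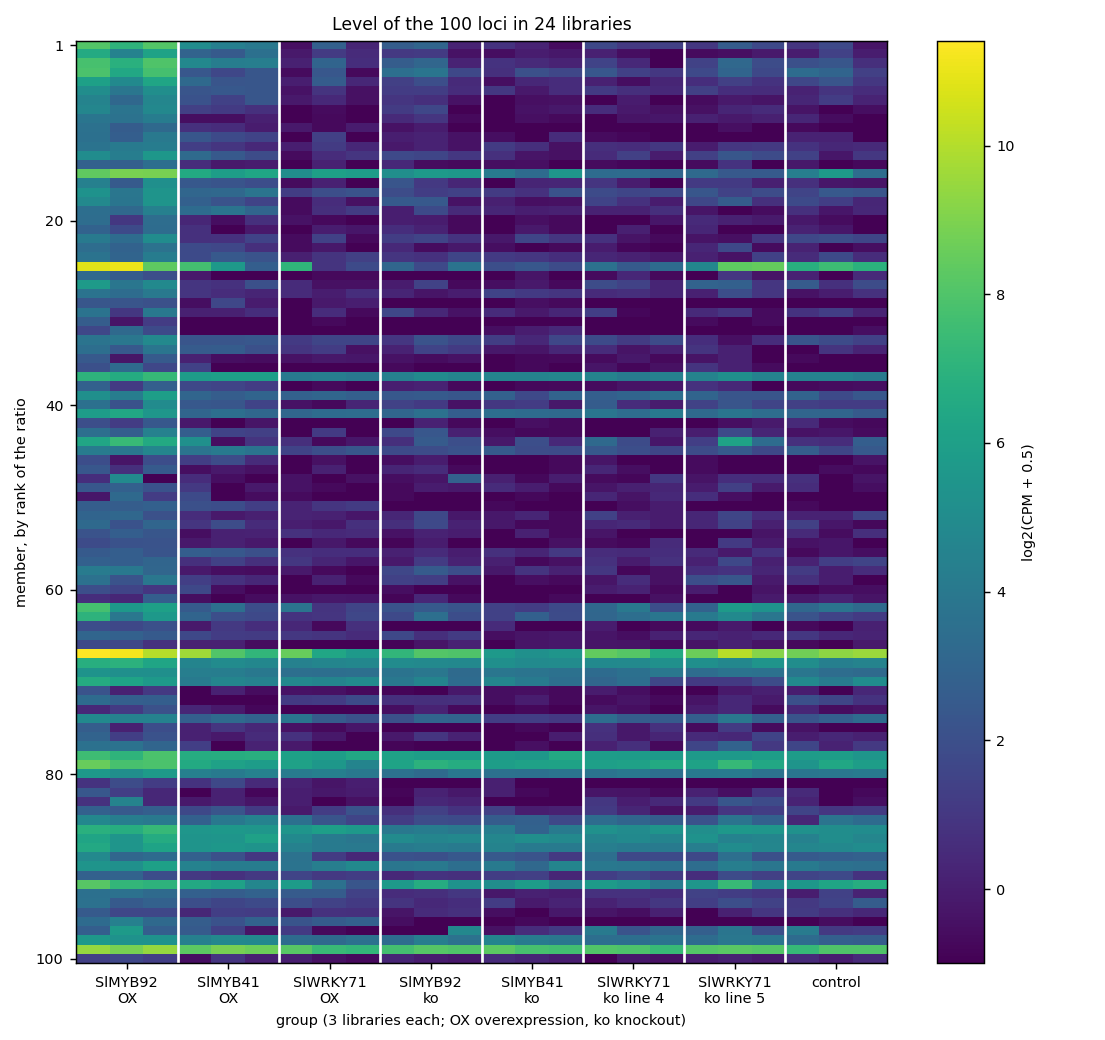
Levels of the 100 loci in the 24 libraries as log2(CPM + 0.5), with loci from the highest ratio at the top to the lowest at the bottom and the 3 libraries of each group side by side. The SlMYB92 overexpression columns are the brightest in every row by group mean, and the SlMYB41 overexpression columns hold the next highest group mean in 51 of the 100 rows.

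The 10 loci of highest ratio were Solyc04g014330, Solyc09g065410, Solyc04g014320, Solyc09g065420, Solyc03g005210, Solyc03g005320, Solyc06g054030, Solyc04g014310, Solyc05g054900 and Solyc04g080530. Solyc04g014330 was at 272, 136 and 269 CPM in the SlMYB92 overexpression libraries, at 32.1, 19.7 and 15.8 CPM in the SlMYB41 overexpression libraries and at 1.38, 2.83 and 0.320 CPM in the control. Among the other groups its highest mean was 4.72 CPM, in the SlMYB92 knockout. Solyc09g065410 was at 94.5, 22.2 and 69.9 CPM with SlMYB92 overexpressed, 7.21, 5.16 and 11.6 CPM with SlMYB41 overexpressed and 0.504, 2.14 and 0.496 CPM in the control. For both loci the 3 groups did not overlap: SlMYB92 overexpression was highest, SlMYB41 overexpression lay between, and the control was lowest.

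Not all of the first 10 loci took that order. Solyc09g065420 was at 234, 86.5 and 216 CPM with SlMYB92 overexpressed, but at 4.68, 2.58 and 4.47 CPM with SlMYB41 overexpressed and 10.1, 7.57 and 2.08 CPM in the control. Solyc05g054900 was at 13.9, 12.1 and 17.9 CPM with SlMYB92 overexpressed, at 0.195, 0.198 and 0.549 CPM with SlMYB41 overexpressed and at 0.756, 0.165 and 0 CPM in the control. At both loci SlMYB41 overexpression overlapped the control. Solyc03g005210, Solyc03g005320 and Solyc06g054030 had means of 57.5, 27.5 and 18.8 CPM with SlMYB92 overexpressed, of 5.93, 4.51 and 3.52 CPM with SlMYB41 overexpressed, and of 2.80, 0.979 and 1.09 CPM in the control.

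**Figure D2:**
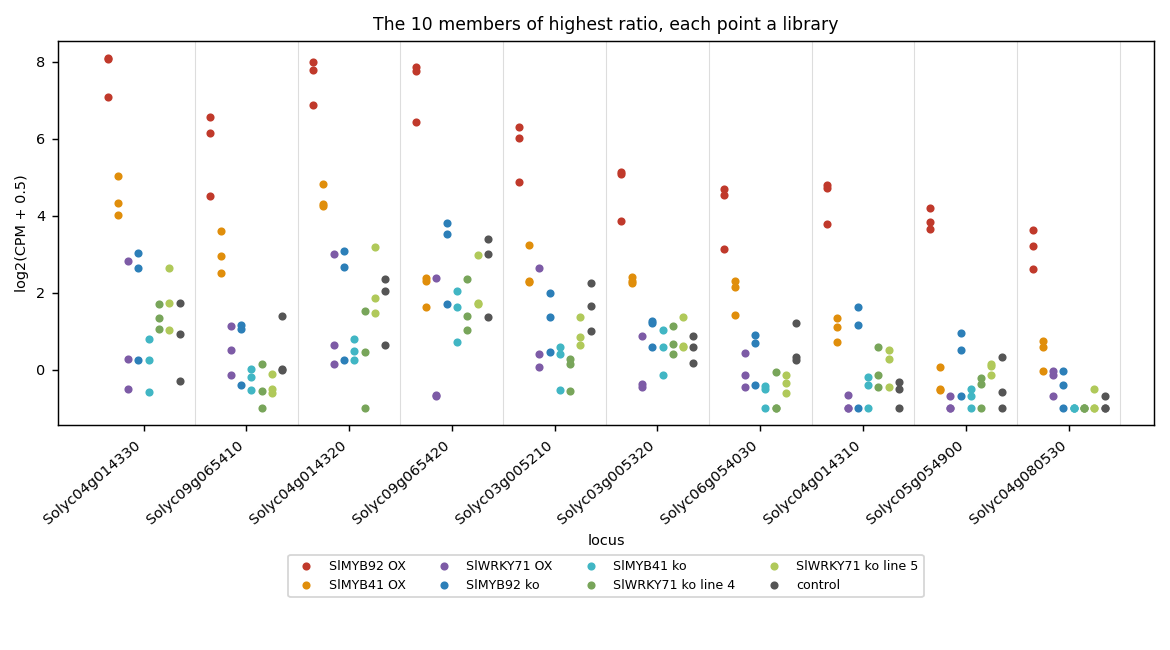
Levels of the 10 loci of highest ratio as log2(CPM + 0.5), each point a library and each colour a group, with SlMYB92 overexpression at the left of each locus and the control at the right. The SlMYB92 overexpression points lie above all others, the SlMYB41 overexpression points come next for Solyc04g014330 and Solyc09g065410, and they lie among the other groups for Solyc09g065420 and Solyc05g054900.

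The levels differed among the SlMYB92 overexpression libraries, and the order of these libraries was not the same at all loci. The highest of these 3 libraries was more than 2 times the lowest for 64 loci and more than 5 times for 16, with a median of 2.31 times. A further locus had no count in one of the 3. Library 3 was the lowest of the 3 at all of the first 10 loci and at 62 of the 100, although Solyc05g051550 was highest in that library. Library 4 was the lowest at 27 loci and library 2 at 11.

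Solyc07g009230 showed the other course, at 1814, 2127 and 319 CPM in SlMYB92 overexpression libraries 2, 3 and 4. It stood at 211, 51.0 and 5.96 CPM with SlMYB41 overexpressed and at 114, 183 and 121 CPM in the control. In SlWRKY71 knockout line 5 it was at 26.2, 320 and 360 CPM, so that SlMYB92 overexpression library 4 lay below 2 of those libraries. Solyc09g014525 was likewise at 71.1 CPM in library 3 of that knockout line, against 1.94 and 9.91 CPM in its other libraries and 81.7, 167 and 92.3 CPM with SlMYB92 overexpressed.

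Whether the loci also varied together inside groups was looked at after these values had been seen, from each library's deviation from its group mean, which the choice of loci did not use. Over the 21 libraries outside SlMYB92 overexpression, the mean pairwise Pearson correlation of these deviations was 0.469 among the first 10 loci, 0.134 among the first 50 and 0.068 among all 100. It was 0.018 over the 15061 loci at the minimum level. The libraries share depth and composition across loci, and 3 of the first 10 loci lie in a run of loci that share reads. SlWRKY71 overexpression library 4 is an example, with 6.58 CPM at Solyc04g014330 against 0.204 and 0.699 CPM in the other libraries of that group, and 4.74 CPM at Solyc09g065420 against 0.136 and 0.117 CPM.

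Of the 100 loci, 25 were within 5 listed loci of another one in the genome, in 9 runs. The same rule applied to SlWRKY71 overexpression gave 100 loci of which 4 lay in 2 runs. There no locus was set aside, and SlMYB92 overexpression was among the groups that had to be low. The share over all loci at the minimum level was not computed, and some runs hold loci that share reads. Position was not used to choose the loci, and the comparison of these counts is a description without a test.

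The longest run held 6 loci among 9 listed neighbours on chromosome 4, namely Solyc04g014290, Solyc04g014310, Solyc04g014320, Solyc04g014330, Solyc04g014350 and Solyc04g014370. Of their neighbours, Solyc04g014360 averaged 2.72 CPM with SlMYB92 overexpressed, against 0.603 CPM in the control, while Solyc04g014300 and Solyc04g014340 were at or near 0 CPM in every group. Between 50% and 91.7% of the estimated counts of the first 5 of the 6 loci were not whole numbers, which is how the counting program writes reads that it shares out between similar transcripts, and the split among these 5 loci is therefore uncertain. Their sum does not depend on a split among themselves. It was 557, 285 and 617 CPM in the SlMYB92 overexpression libraries, 74.2, 46.2 and 40.5 CPM in the SlMYB41 overexpression libraries and 8.45, 9.71 and 2.48 CPM in the control. It stood at 3.24, 2.13 and 1.61 CPM in libraries of the SlMYB41 knockout, and in the SlMYB92 knockout 21.3, 28.0 and 2.27 CPM. The sixth, Solyc04g014370, had whole counts throughout and smaller differences, at 190, 134 and 237 CPM with SlMYB92 overexpressed, 101, 105 and 114 CPM with SlMYB41 overexpressed and 57.0, 58.9 and 43.2 CPM in the control.

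On chromosome 9 the run was of 3 loci in a row, Solyc09g065410, Solyc09g065420 and Solyc09g065430, all with whole counts. Solyc09g065430 was at 335, 479 and 467 CPM with SlMYB92 overexpressed, at 93.3, 59.1 and 78.5 CPM with SlMYB41 overexpressed and at 19.3, 53.1 and 10.4 CPM in the control. It was lowest in SlWRKY71 knockout lines 4 and 5, which averaged 9.02 and 6.31 CPM, against 27.6 CPM in the control. The 3 adjacent loci thus shared a high level with SlMYB92 overexpressed, while SlMYB41 overexpression was above the control libraries at Solyc09g065410 and Solyc09g065430 and overlapped them at Solyc09g065420.

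A run of 4 loci on chromosome 7, from Solyc07g008980 to Solyc07g009090, lay among neighbours that were high in other groups too, such as Solyc07g009060, which averaged 246 CPM with SlMYB92 overexpressed, 189.8 CPM in SlWRKY71 knockout line 5 and 85.7 CPM in the control. Solyc07g009040 was at 213, 47.9 and 65.6 CPM with SlMYB92 overexpressed, against 8.28, 13.1 and 9.16 CPM in the control, and at 7.10, 53.7 and 39.6 CPM in SlWRKY71 knockout line 5. SlMYB92 overexpression overlapped that knockout line. Of the values, 100% were not whole at Solyc07g009090 and 79.2% at Solyc07g009040, so reads there were shared out between similar transcripts. The remaining runs were pairs: Solyc01g100750 and Solyc01g100760, Solyc01g102895 and Solyc01g102910, Solyc02g014680 and Solyc02g014690, Solyc05g012920 and Solyc05g012930, Solyc05g052340 and Solyc05g052370, and Solyc05g054890 and Solyc05g054900. The last pair differed in SlMYB41 overexpression, where Solyc05g054890 was at 5.45, 5.55 and 3.61 CPM against 0, 1.32 and 0.694 CPM in the control, without overlap, while Solyc05g054900 overlapped the control.

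**Figure D3:**
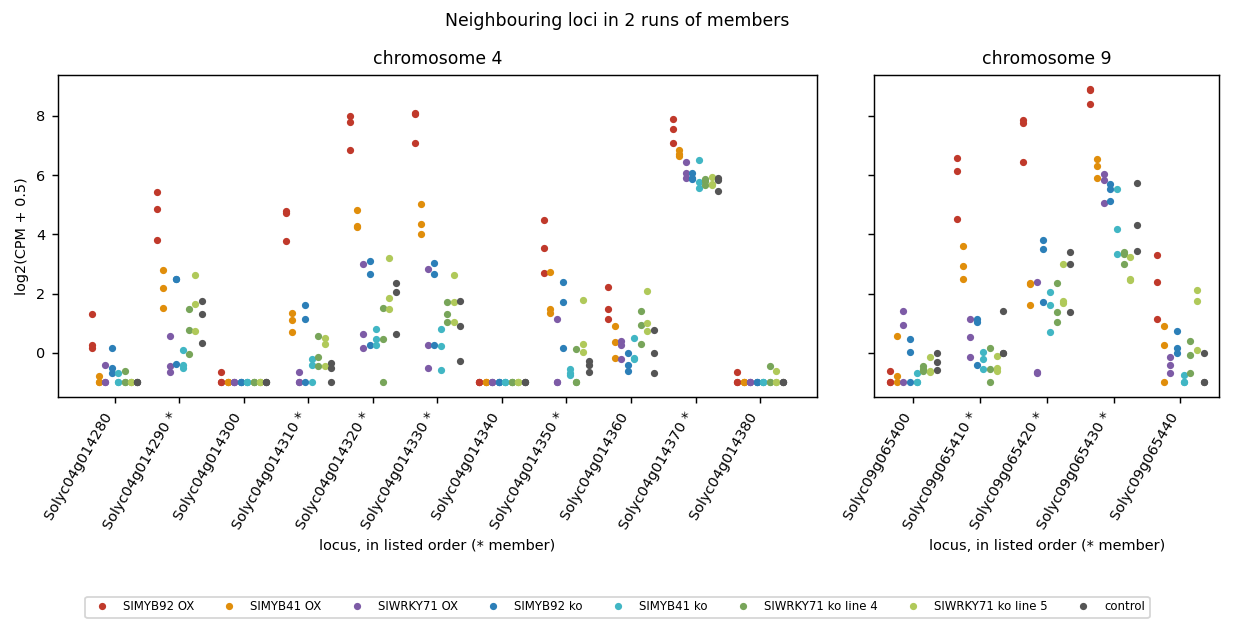
Levels as log2(CPM + 0.5) of all listed loci in the chromosome 4 and chromosome 9 runs and of the locus on each side, each point a library and each colour a group, with chosen loci marked by a star. SlMYB92 overexpression is highest at the starred loci, and several unstarred neighbours are near 0 CPM in all groups.

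With SlMYB41 overexpressed, 14 of the loci rose against the control, 1 fell, 77 did not pass the test and 8 were not tested (edgeR quasi-likelihood test, Benjamini-Hochberg adjusted p under 0.05 over 18297 loci). Of all loci tested, 0.650% were called higher and 0.328% lower. The median log2 fold change was 0.97 over the 92 tested loci and 0.01 over all loci tested. Of the 92, 22 passed the filter on low counts only through the SlMYB92 overexpression libraries that chose them, so this median is a description. All 3 SlMYB41 overexpression libraries were above the control libraries at 44 of the 100 loci, against 5.52% of all loci tested, and below them at 4, against 11.1%. The 8 loci not tested are part of the 100 but not of those shares. The 100 also include the 22 loci that passed the filter only through the SlMYB92 overexpression libraries, so these counts too are a description. The SlMYB41 overexpression libraries had no part in choosing the loci, but the control did, as a group that had to be low, and this favours a rise.

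The rises were largest at loci that were nearly silent in the control. Solyc07g019577 was at 5.92, 3.87 and 7.04 CPM with SlMYB41 overexpressed and had 1 count over the control libraries, a ratio of 147 (95% counting interval 26.0 to 5850; adjusted p = 0.00012 by edgeR). Solyc06g050375 was at 3.53, 3.37 and 1.96 CPM, also with 1 count in the control, a ratio of 63.1 (interval 10.9 to 2530; adjusted p = 0.0022 by edgeR). Solyc12g044695 had 31 counts with SlMYB41 overexpressed and none in the control, at least 11-fold higher when the control is set to a floor of 3 counts in all. Solyc12g044695 is counted among the 14 but passed the filter on low counts only through the SlMYB92 overexpression libraries that chose it, so its call is given as a description. These 3 loci had 33.3%, 50% and 41.7% of values that were not whole. Intervals and floors cover counting error only.

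Other loci that rose were higher in the control. Solyc12g062340 was at 6.04, 4.76 and 3.61 CPM with SlMYB41 overexpressed and 0.126, 0.329 and 0.198 CPM in the control, a log2 fold change of 4.48 (SE 0.51; adjusted p = 1.3e-05 by edgeR). The control was the lowest of all groups at this locus, and the means of the other 5 groups without a MYB gene overexpressed were between 0.678 and 1.15 CPM. Its level with SlMYB92 overexpressed, 5.19, 5.96 and 4.22 CPM, overlapped that with SlMYB41 overexpressed. Solyc03g083130 was at 9.61, 13.3 and 7.75 CPM with SlMYB41 overexpressed against 1.14, 0.329 and 0.805 CPM in the control, a log2 fold change of 3.77 (SE 0.62; adjusted p = 0.0014 by edgeR). It too overlapped SlMYB92 overexpression, at 10.8, 8.71 and 20.6 CPM. Of the values, 54.2% were not whole at Solyc03g083130 and 20.8% at Solyc12g062340, so reads there were shared out between similar transcripts.

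Solyc04g014330, Solyc07g007800 and Solyc09g065410 had log2 fold changes of 4.10 (SE 0.79), 3.75 (SE 0.85) and 3.17 (SE 0.66), with adjusted p by edgeR of 0.0077, 0.031 and 0.015. The remaining rises, by 1.11 to 2.67 on the log2 scale, were at Solyc03g114940, Solyc03g005320, Solyc10g055620, Solyc01g008050, Solyc02g085180 and Solyc04g014370, and these 6 are named to complete the count. Solyc02g085180 stood at 57.9, 64.7 and 62.7 CPM with SlMYB41 overexpressed and 21.9, 22.1 and 17.7 CPM in the control, and at 130, 97.5 and 157 CPM with SlMYB92 overexpressed.

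The locus that fell was Solyc11g042950. It had no count with SlMYB41 overexpressed and stood at 3.53, 2.47 and 1.29 CPM in the control, at least 17.8-fold lower (adjusted p = 0.0001 by edgeR), while SlMYB92 overexpression had 9.71, 6.29 and 5.93 CPM. A low level was not particular to SlMYB41 overexpression. In the SlMYB41 knockout Solyc11g042950 was at 0.190, 0.507 and 0.123 CPM, below every control library. Its means were 0.182 and 0.518 CPM in SlWRKY71 knockout lines 4 and 5 and 1.14 CPM in the SlMYB92 knockout. With SlWRKY71 overexpressed it averaged 2.12 CPM, and the control mean of 2.43 CPM was the highest of these. The count of 15 called loci became 9 without control library 5 and 29 with a mean of 4 groups that target another gene as the reference. These were the SlMYB92 knockout, both SlWRKY71 knockout lines and SlWRKY71 overexpression. They too had to be low for a locus to be chosen, which favours a rise, so the 29 is a description. Among the loci with values here, Solyc04g014330 lost its call without control library 5 (adjusted p = 0.085 by edgeR; 0.00018 to 0.085 over its alternatives), Solyc09g065410 without SlMYB41 overexpression library 5 or control library 2 or 5 (0.11, 0.096 and 0.14; 2.1e-05 to 0.14), and Solyc07g007800 without any 1 of the 6 libraries (0.07 to 0.15; 0.0031 to 0.15). Solyc12g044695, whose call is a description, also lost it without any 1 of the 6 libraries. With the mean of the 4 groups as the reference, the log2 fold change was 2.39 at Solyc12g062340, 2.90 at Solyc04g014330, 3.12 at Solyc07g007800 and 3.93 at Solyc09g065410.

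**Figure D4:**
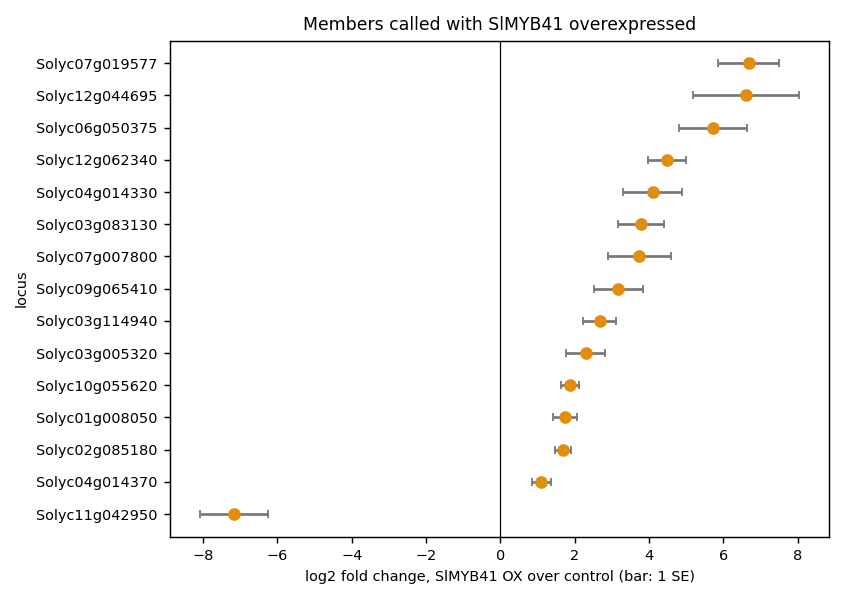
Log2 fold changes of the 15 called loci, SlMYB41 overexpression over control, with bars of 1 SE from the edgeR fit. The points for Solyc07g019577, Solyc06g050375, Solyc12g044695 and Solyc11g042950 rest on a group with 0 or 1 count, so that their place on the axis depends on the fit's prior count.

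Against the SlMYB41 knockout, SlMYB41 overexpression was higher at 27 of the loci and lower at none, with 65 not passing the test (edgeR quasi-likelihood test, adjusted p under 0.05). Of all loci tested, 1.93% were called higher and 1.27% lower. Of the 27 loci, 11 were also called higher than in the control. The libraries of the 2 groups did not overlap at 56 of the 100 loci, with SlMYB41 overexpression above at 54 (8.65% of all loci tested) and below at 2 (6.57%). Here too the 100 include the 8 loci not tested and the 22 that passed the filter only through the SlMYB92 overexpression libraries. The counts of libraries without overlap are therefore a description. The knockout was one of the groups that had to be low for a locus to be chosen.

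The largest of these differences with no overlap were at Solyc07g019577, with 140 counts with SlMYB41 overexpressed and 1 in its knockout, a ratio of 142 (95% counting interval 25.0 to 5640), and at Solyc06g050375, with 60 counts against 1 (ratio 60.8, interval 10.5 to 2440). Their adjusted p by edgeR were 6.9e-05 and 0.0014. Solyc04g080530 had 17 counts against none, at least 5.74-fold higher. It and Solyc07g056320, both among the 27, passed the filter on low counts only through the SlMYB92 overexpression libraries, and their calls are descriptions. The first 10 loci of the ranking were called higher in 7 cases, among them Solyc04g014330, at 32.1, 19.7 and 15.8 CPM with SlMYB41 overexpressed and 1.24, 0.678 and 0.173 CPM in the knockout, a log2 fold change of 5.11 (SE 0.89; adjusted p = 0.0011 by edgeR). Among those first 10, Solyc04g014310, Solyc04g014320 and Solyc04g014330 share reads in the chromosome 4 run, so the split between them is uncertain. Without SlMYB41 knockout library 3 the count of 27 became 15.

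Between the 2 MYB overexpression groups, 34 of the loci were higher with SlMYB92 overexpressed than with SlMYB41 overexpressed, none was lower and 58 did not pass (edgeR quasi-likelihood test, adjusted p under 0.05). Of all loci tested, 0.410% were called higher and 0.142% lower. Every tested locus had a positive log2 difference, with a median of 2.20, and the libraries did not overlap at 82 of the 100, all with SlMYB92 overexpression above (9.77% of all loci tested were above and 7.44% below). The loci had been chosen for high values with SlMYB92 overexpressed, so these counts, differences and p-values are a description and are no evidence that the groups differ at these loci. Of the 34, 4 passed the filter on low counts only through the SlMYB92 overexpression libraries: Solyc01g065643, Solyc12g040860, Solyc05g054900 and Solyc04g080530. No p is given for them.

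The 6 largest differences were at loci that were low with SlMYB41 overexpressed. Solyc11g042950 had 142 counts with SlMYB92 and none with SlMYB41 overexpressed, at least 54.6-fold higher (adjusted p = 6e-06 by edgeR). Solyc01g065643 had 96 counts against none, at least 36.9-fold higher, with 2.60, 9.05 and 2.90 CPM in the SlMYB92 overexpression libraries. Solyc12g040860 had 113 counts against 2, a ratio of 65.2 (95% counting interval 17.6 to 545).

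At the other 3, Solyc01g102895 was at 17.7, 15.1 and 8.04 CPM with SlMYB92 overexpressed and 0.390, 0.198 and 0.157 CPM with SlMYB41 overexpressed, a log2 difference of 5.78 (SE 0.79; adjusted p = 0.00043 by edgeR). Its level in the SlMYB92 knockout was 2.67, 5.35 and 3.28 CPM, above the control at 1.77, 0.494 and 0.992 CPM. That difference between knockout and control did not pass the test. Solyc09g065420 and Solyc05g054900 differed by 5.48 (SE 0.78) and 5.24 (SE 0.77) on the log2 scale, with an adjusted p by edgeR of 0.00065 for Solyc09g065420.

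Of the 14 loci that rose against the control with SlMYB41 overexpressed, 4 were also higher with SlMYB92 than with SlMYB41 overexpressed: Solyc04g014330, Solyc09g065410, Solyc03g005320 and Solyc02g085180, with log2 differences of 3.35 (SE 0.66), 2.91 (SE 0.55), 2.60 (SE 0.46) and 1.05 (SE 0.21). At the other 10 the groups were not told apart by the test, which does not show equal levels. Solyc12g062340 had a log2 difference of 0.10 (SE 0.38), Solyc03g083130 of 0.41 (SE 0.51) and Solyc07g019577 of 1.18 (SE 0.48). Over all 100 loci, the mean with SlMYB41 overexpressed was 50% or more of that with SlMYB92 overexpressed at 12 loci and under 10% of it at 30.

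The count of 34 loci became 18, 11 and 15 without SlMYB41 overexpression library 2, 3 or 5, and 18 and 20 without SlMYB92 overexpression library 2 or 4.

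**Figure D5:**
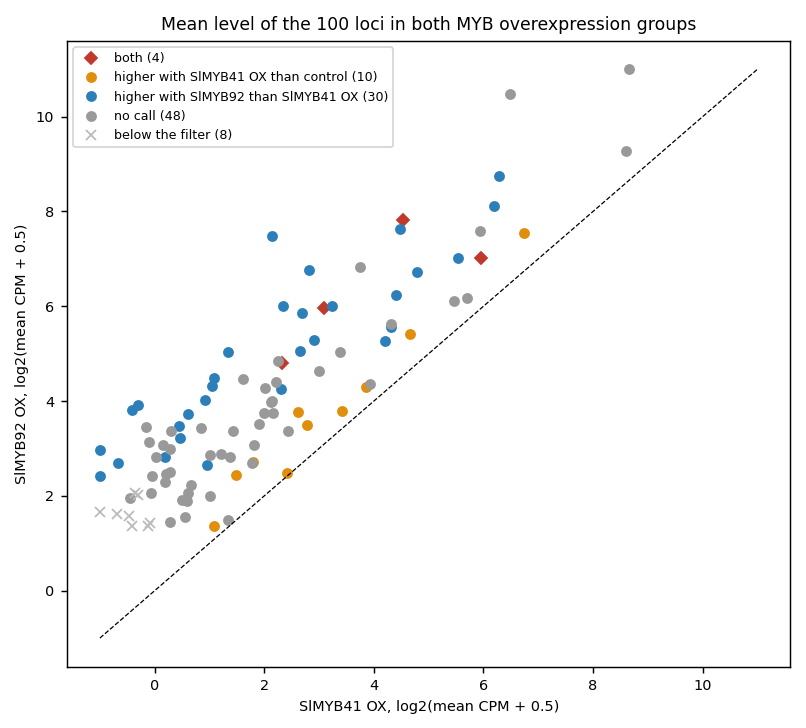
Mean level of each of the 100 loci as log2(mean CPM + 0.5), with SlMYB92 overexpression on the vertical axis and SlMYB41 overexpression on the horizontal axis. Colours give the calls of the edgeR test, and the dashed line marks equal means, above which every locus lies. Of the loci, 4 are called in both comparisons, 10 are called higher with SlMYB41 overexpressed than in the control but not between the overexpression groups, and 30 are called higher between those groups without a rise over the control.

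In the SlMYB92 knockout 1 of the loci was higher than in the control, 2 were lower and 89 did not pass the test (edgeR quasi-likelihood test, adjusted p under 0.05). Of all loci tested, 1.12% were called higher and 1.75% lower, so the loci were called at a rate near that of all loci. All 3 knockout libraries were above the control at 5 of the 100 loci (7.01% of all loci tested) and below it at 12 (9.95%), with the 8 loci not tested among the 100. Most of the loci were low in both groups, with a median over loci of 1.33 CPM in the knockout and 1.09 CPM in the control, and a fall from such levels is hard to detect at this depth.

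Solyc05g007300 had 1 count in the SlMYB92 knockout and stood at 2.52, 0.658 and 1.59 CPM in the control (log2 fold change -5.001, SE 1.23; adjusted p = 0.024 by edgeR), and at 11.8, 12.1 and 7.78 CPM with SlMYB92 overexpressed. Solyc07g008140 was at 15.2, 17.9 and 14.6 CPM in the knockout, 38.3, 33.9 and 31.8 CPM in the control (log2 fold change -1.10, SE 0.25; adjusted p = 0.014 by edgeR) and 119, 107 and 160 CPM with SlMYB92 overexpressed. At both loci the order was overexpression, control, knockout, without overlap between neighbours in that order. The low level was not particular to the SlMYB92 knockout. Solyc05g007300 was also below every control library in the SlMYB41 knockout, at 0, 0.203 and 0 CPM, and with SlWRKY71 overexpressed, at 0.408, 0 and 0 CPM. Its means were 0.609 and 3.71 CPM in SlWRKY71 knockout lines 4 and 5 and 0.858 CPM with SlMYB41 overexpressed, against 1.59 CPM in the control. Solyc07g008140 was also low in the SlMYB41 knockout, at 18.9, 6.998 and 16.5 CPM.

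Solyc10g055620 was higher in the SlMYB92 knockout, at 9.89, 19.5 and 12.4 CPM against 9.46, 6.25 and 5.92 CPM in the control (log2 fold change 0.95, SE 0.24; adjusted p = 0.032 by edgeR). It was above the control means in all 7 other groups, between 10.1 and 42.2 CPM against 7.21 CPM. Each of these 3 calls was lost in some fits without 1 library: Solyc05g007300 without any 1 knockout library or control library 2 or 5 (adjusted p by edgeR 0.063 to 0.11; 0.0069 to 0.11 over its alternatives), Solyc07g008140 without knockout library 2 or 5 or control library 2 (0.056 to 0.081; 0.0017 to 0.081), and Solyc10g055620 without knockout library 3 or 5 or control library 3 or 5 (0.053 to 0.25; 0.014 to 0.25), and also with only the 2 groups in the fit (0.22) or without the SlMYB92 overexpression libraries (0.06).

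The groups set against SlMYB92 overexpression in the choice did not hold the highest mean equally often at these loci. The highest of their 6 means was in SlWRKY71 knockout line 5 for 33 loci, in the SlMYB92 knockout for 20, in the control for 18, in SlWRKY71 overexpression for 17, in SlWRKY71 knockout line 4 for 7 and in the SlMYB41 knockout for 5. The median over loci of the group mean was 12.8 CPM with SlMYB92 overexpressed, 2.74 CPM with SlMYB41 overexpressed, 0.809 CPM with SlWRKY71 overexpressed, 0.507 CPM in the knockout of SlMYB41, 1.33 CPM in the knockout of SlMYB92, 0.717 and 1.22 CPM in SlWRKY71 knockout lines 4 and 5, and 1.09 CPM in the control. The SlMYB41 knockout mean was above that of the control at 25 of the 100 loci and the SlMYB92 knockout mean at 53. Over all loci tested, 53.2% had a positive log2 fold change in the SlMYB92 knockout against the control, so the 53 is near that share. Shares over all loci were not computed for the SlMYB41 knockout or for the highest means, and those counts are a description.

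At 2 loci, Solyc07g019577 and Solyc06g050375, all 9 overexpression libraries stood above all 15 knockout and control libraries, as they did at 6 of the 15061 loci at the minimum level (0.0398%). Solyc07g019577 was at 9.77, 20.7 and 9.10 CPM with SlMYB92, 5.92, 3.87 and 7.04 CPM with SlMYB41 and 4.24, 5.68 and 6.74 CPM with SlWRKY71 overexpressed, and nowhere above 0.195 CPM in the other groups. Solyc06g050375 was at 5.82, 5.74 and 6.56 CPM, 3.53, 3.37 and 1.96 CPM, and 0.672, 1.38 and 1.74 CPM in the same 3 groups, and at most 0.462 CPM elsewhere.

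The edge of the choice was not sharp. The last loci inside were Solyc10g055620, Solyc03g080180 and Solyc02g090220, with log2 ratios of 1.16, 1.15 and 1.12, and the first outside were Solyc01g008130, Solyc06g050440 and Solyc01g091520, with 1.11, 1.11 and 1.09. Of the 8 loci left out, 5 would have ranked among the first 100, at ranks 1, 5, 10, 54 and 76. With one SlMYB92 overexpression library left out at a time (2, 3 or 4), 86, 89 and 87 of the 100 loci were chosen again. In the library left out, 90, 92 and 90 of the 100 loci chosen without it were above the highest mean of the 6 groups, with median log2 ratios of 1.81, 1.42 and 1.64. The same 6 means had to be low for these loci to be chosen, which favours high counts. No share over all loci was computed, so the counts are a description.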

How the data were processed

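Poly(A) RNA was sequenced as paired reads of 75 bp without marking strand, per the labels' protocols, which speak of 4 biological replicates per line; 3 libraries per group were analysed here. The authors deposited estimated counts, with 1 transcript for each locus. The submitters' processing notes name Trim Galore (version 0.6.6) and kallisto (version 0.46.2). Build and annotation: not given in the sources used here. A share of 6.18% of values was not whole (tolerance 1e-09). kallisto shares reads between similar transcripts by estimation, so loci with close copies are uncertain, and reads of antisense neighbours cannot be told apart from a locus's own. Columns were assigned to groups by name.

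CPM used each column's total. For tests, the estimated counts were rounded, filtered (filterByExpr), scaled by TMM and fitted with edgeR's quasi-likelihood test in all 24 libraries with a mean per group (edgeR 4.0.16, limma 3.58.1, R 4.3.3), with Benjamini-Hochberg adjustment over 18297 loci and a threshold of 0.05. SE is the size of the log2 fold change over the square root of F. Of 24 replicate pairs none was identical, and each differed by more than sampling noise, with a chi-square per locus of at least 7.04.

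The 100 loci were chosen with earlier results of these data known, and the tests were set with those results known too. Loci named in the text are the first 10 by ratio, those called with no overlap of libraries (the largest 8, 6 or 3 per direction by comparison), the 3 on either side of rank 100, those within 5 listed loci of another, loci that the rule sets aside, the 5 loci most like the mean of the 100, and any further ones said to complete a count or shown for contrast after their values were seen. Names and product lists could not be used, because no identifier was paired with a name. DESeq2 1.42.0, no filter, other sets of libraries and leaving out single libraries were alternatives.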

Additional observations from a re-analysis of the deposited data

How the results depend on the processing

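Counts are of the 100 loci unless said otherwise. With SlMYB41 overexpressed against control, 15 loci were called, 13 to 21 with DESeq2, with no filter, with only the groups compared or without the SlMYB92 overexpression libraries, 9 to 12 without a library, and 29 against a mean of 4 groups that target another gene. Those 4 groups also had to be low for a locus to be chosen. Against the SlMYB41 knockout the count of 27 was 22 to 32 under those same settings of method, filter and groups, and 15 to 25 without a library. In this comparison 36% of the first 50 loci were called, and 18% when the list was made longer by as many loci again. With SlMYB41 overexpressed against control these shares were 14% and 10%. Between the overexpression groups the count of 34 was 42 with DESeq2, 44 with no filter, 11 to 33 without a library, and 18.5% of loci when the list was made longer by as many loci again. For the SlMYB92 knockout against control the count of 3 was 6 with DESeq2, 5 with no filter, 0% with the first 50 loci and 1 to 2 without a library. The cause of the other shifts was not tested. The choice of loci kept 86 to 89 of 100 without a SlMYB92 overexpression library, 84 with SlMYB41 overexpression among the groups set against it, 77 with a minimum of 5 CPM, 89 with a minimum of 1 CPM, and 96 or 97 with another pseudocount or TMM scaling. Below the filter when only the groups compared were fitted were Solyc11g042950 and Solyc12g044695 (SlMYB41 overexpression against control), Solyc04g080530 (against the SlMYB41 knockout) and Solyc05g007300 (SlMYB92 knockout against control). Without the SlMYB92 overexpression libraries Solyc12g044695 and Solyc04g080530 were below it. Among the named loci no log2 fold change reversed its sign in any alternative. At 100 loci of mostly low level, depth limits what can be seen, since 44 were under 10 CPM even in their highest group. The labels' replicate numbers could not be matched to columns. With the number in the column name as a replicate block, chosen after seeing the data, the 15, 27, 34 and 3 calls became 16, 25, 17 and 3. Same-numbered libraries of the groups compared had correlations of deviations between -0.248 and 0.250, not every pair was above 0.1 in any comparison, and nothing shows that these numbers pair the samples.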

Other observations

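The 100 loci were spread over all 12 chromosomes. Chromosome 7 held 15% of them, against 7.56% of the 15061 loci at the minimum level, and chromosomes 8 and 11 held 3% each, against 7.25% and 6.3%. Identifiers that do not end in 0 made up 10% of the 100 loci, 14% of the 100 that the same rule gave for SlWRKY71 overexpression and 3.45% of the loci at the minimum level. All 24 values were whole numbers at 72% of the 100 loci and at 83.5% of the loci at the minimum level.

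Outside the 100 loci, the patterns most like their mean over the 24 libraries were those of Solyc05g051550, Solyc03g097500 and Solyc01g094700, with Pearson correlations of log2(CPM + 0.5) of 0.93, 0.92 and 0.87 among 18129 loci compared. All 3 are among the 8 loci left out. Solyc03g097500 averaged 157 CPM with SlMYB92 overexpressed, 10.7 CPM with SlMYB41 overexpressed and 2.78 CPM in the control, and Solyc01g094700 averaged 45.4, 21.7 and 2.02 CPM in the same groups. The next were Solyc02g092420 and Solyc11g062260, each at 0.83. Solyc02g092420 averaged 28.7 CPM with SlMYB92 overexpressed, 16.8 CPM with SlMYB41 overexpressed and 14.9 CPM in the control, and Solyc11g062260 averaged 30.45, 18.95 and 13.6 CPM in the same groups. The 100 loci were chosen for high levels with SlMYB92 overexpressed, so their mean is highest there by the choice. A locus with a strong peak in that group therefore correlates highly with it. The libraries also share groups and depth, and these values are a description.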
